A study of Homo sapiens with 6 samples.

Results

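The baseline transcriptome of untreated MM.1S cells was described from the 3 untreated arrays of a series of 6. MM.1S is an established human multiple myeloma line, that is, a line of malignant plasma cells grown in culture. The 3 baseline arrays held RNA of cells without treatment at 3, 6 and 12 h, with 1 array for each time. The other 3 arrays held RNA of MM.1S cells given enzastaurin, which blocks the beta form of protein kinase C, for equal times. They were not used to define the baseline and appear below only beside it. All 6 arrays share the same line and the same RNA extraction with TRIzol. The labels do not say whether each array stands for a culture of its own, so the spread over the 3 arrays joins culture time, culture and array, which cannot be told apart. The labels give no dose, and no allele or transgene.

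Each value is a probe set intensity that the authors made with MAS5, the Affymetrix summary of a set of short probes. Without 62 controls, 22215 of 22277 probe sets remained. The annotation gave 19064 of these a single symbol and 1043 several, and did not list 2108. Keeping the probe set of highest mean signal for each gene left 11963 genes, which are the members of the baseline. They were ranked by the mean of log2 intensity over the 3 arrays, with intensities floored at 1. A rank describes signal, which rests on how well a probe set binds as well as on the amount of RNA, so neighbouring ranks give no order of RNA amounts. The upper 50% of genes, 5982 with a mean intensity of at least 85.5, entered the tests and the counts of spread, and are called the tested genes below.

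Plasma cells are the antibody factories of the immune system. XBP1, IRF4 and PRDM1 are the transcription factors known for setting up this state, and the endoplasmic reticulum (ER) of a plasma cell is expanded to fold and export immunoglobulin. Surface proteins such as syndecan-1 (SDC1) and BCMA (TNFRSF17) mark the cell type, while the B cell programme headed by PAX5 is silenced. MM.1S is known for a translocation that brings the transcription factor gene MAF next to the immunoglobulin heavy chain locus, and CCND2, ITGB7 and CCR1 are known targets of MAF in myeloma.

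The start sites of the genes with the highest signal are shown first because many of them share a sequence feature. Transcripts of the protein synthesis machinery are known for beginning with a C followed by a run of pyrimidines, a feature through which cells adjust their translation to nutrients. The windows below run from 40 bases before the annotated start to 10 bases after it, from RefSeq on GRCh38.p14, on the strand of the gene, and the capitals mark the unbroken pyrimidine run that begins at the start.
RPL37A, chr2:216498804-216498853, plus strand: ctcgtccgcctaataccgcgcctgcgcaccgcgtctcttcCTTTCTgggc
EEF1A1, chr6:73521023-73521072, minus strand: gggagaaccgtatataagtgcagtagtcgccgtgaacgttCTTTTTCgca
RPL41, chr12:56116593-56116642, plus strand: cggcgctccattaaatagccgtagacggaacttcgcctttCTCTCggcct
RPS23, chr5:82278345-82278394, minus strand: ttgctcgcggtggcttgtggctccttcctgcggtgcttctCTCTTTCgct
RPS10, chr6:34426060-34426109, minus strand: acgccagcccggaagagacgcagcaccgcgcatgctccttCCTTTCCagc
RPS18, chr6:33272035-33272084, plus strand: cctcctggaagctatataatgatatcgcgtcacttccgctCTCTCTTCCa
TPT1, chr13:45341174-45341223, minus strand: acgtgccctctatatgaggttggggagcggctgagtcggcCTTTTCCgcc
NPM1, chr5:171387809-171387858, plus strand: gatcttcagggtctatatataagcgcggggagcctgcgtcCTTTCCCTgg

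These 8 genes ranked 2, 3, 4, 5, 6, 12, 33 and 45 by signal in untreated cells. A start of C followed by at least 4 pyrimidines was found in 33 of the 47 ribosomal protein genes with a window (70.2%) and in 38 of 83 of the 100 genes of highest signal (45.8%). The same start was present in 303 of 5035 tested genes with a window (6.02%) and in 1104 of all 27305 windows (4.04%). The 2 gene sets overlap, since 46 of the top 100 genes encode ribosomal proteins. Without these, 8 of the 43 top 100 genes with a window had this start (18.6%). A match describes these letters in 1 annotated start per gene and does not show where transcription began in these cells.

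A second group of windows is shown for genes of ER folding, because their known regulator in plasma cells, XBP1, and the related factor ATF6 act through an element named the ER stress element. It reads CCAAT, then 9 bases, then CCACG, and was searched on both strands in the 250 bases before the start. The capitals below mark its outer parts, and in the 2 genes where it lies on the other strand they mark the reverse complement.
CANX, chr5:179698768-179698806, plus strand: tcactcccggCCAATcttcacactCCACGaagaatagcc
HSPA5, chr9:125241381-125241419, minus strand: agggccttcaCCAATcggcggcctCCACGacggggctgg
CALR, chr19:12938374-12938412, plus strand: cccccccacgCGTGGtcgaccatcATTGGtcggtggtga
HSP90B1, chr12:103930206-103930244, plus strand: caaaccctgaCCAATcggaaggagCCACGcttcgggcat
CRELD2, chr22:49918544-49918582, plus strand: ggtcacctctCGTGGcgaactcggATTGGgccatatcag

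The element was present in 6 of the 21 genes of ER chaperones and folding enzymes with a window (28.6%), the 5 above and ERO1B. Among tested genes it was present in 9 of 5035 (0.179%), and among all windows in 22 (0.0806%). Its first part alone, CCAAT on either strand, was present in 17 of the 21 (81.0%), against 37.4% of tested genes and 33.0% of all windows, and every match of the whole element contains it. The 5 genes shown ranked 118, 187, 278, 603 and 1418 by signal. HSPA5, the main ER chaperone of the HSP70 family, had intensities of 3466, 3307 and 3593 at 3, 6 and 12 h. CALR, which encodes the sugar-binding chaperone calreticulin, had 2520, 3139 and 2655. Neither gene had a range of 2-fold over the untreated arrays.

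Before the levels, differences between the arrays themselves have to be given. Median intensities of the untreated arrays were 63.3 to 64.3, so the authors' scaling placed them alike. Control probe sets for the ribosomal RNA of the small subunit, however, differed. Their mean log2 intensity was 3.39 on the 3 h array, 11.98 on the 6 h array and 9.29 on the 12 h array. Those for the large subunit were not used, and ribosomal RNA signal below means the small subunit alone. For ACTB the log2 ratio between its 3' and 5' probe sets, which grows when labelled RNA is shorter, was 1.89, 1.16 and 1.6 at 3, 6 and 12 h, and that of GAPDH was 0.28, 0.23 and 0.30. Over tested genes the 3 h and 6 h arrays were the least alike (Pearson r across genes 0.924), followed by 3 h and 12 h (0.953) and 6 h and 12 h (0.962). The 12 h array was closer still to the 3 h array with enzastaurin (0.974), whose mean ribosomal RNA signal was 9.99. Genes on an array are not independent replicates, and these correlations describe pairs of arrays. In every difference below that sets 3 h against later times, these array values move with time, and their part in the difference was not tested.

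The cells were checked against the markers of the line. All 6 markers of the line were tested genes and lay within the top 363 of 11963 genes. XBP1 ranked 84, with intensities of 5604, 5010 and 5177 at 3, 6 and 12 h and a mean log2 intensity of 12.36 ± 0.08 (SD, n = 3 arrays). CCND2, the cyclin D of this line, ranked 117 with 6071, 3615 and 4021 (12.12 ± 0.39, SD, n = 3). TNFRSF17, which encodes the survival receptor BCMA, ranked 147 with 3003, 4308 and 4474 (11.92 ± 0.32, SD, n = 3).

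SDC1 ranked 269 with 2319, 2913 and 3278 (11.46 ± 0.25, SD, n = 3). IRF4, on which myeloma cells are known to depend, ranked 329 with 1590, 2901 and 3058 (11.24 ± 0.52, SD, n = 3). MYC ranked 363 with 1911, 2847 and 2123 (11.14 ± 0.30, SD, n = 3). The 3 h array was the lowest for TNFRSF17, SDC1, IRF4 and MYC and the highest for XBP1 and CCND2, and every marker stayed under 2-fold. CCND2 had 2 further probe sets at a tested level, of which 1 was lower (log2 difference -0.15) and 1 higher (0.78) at 6 h than at 3 h. The other SDC1 probe set had a log2 difference of -0.08 for 6 h minus 3 h, opposite in sign to the one shown.

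**Figure D1:**
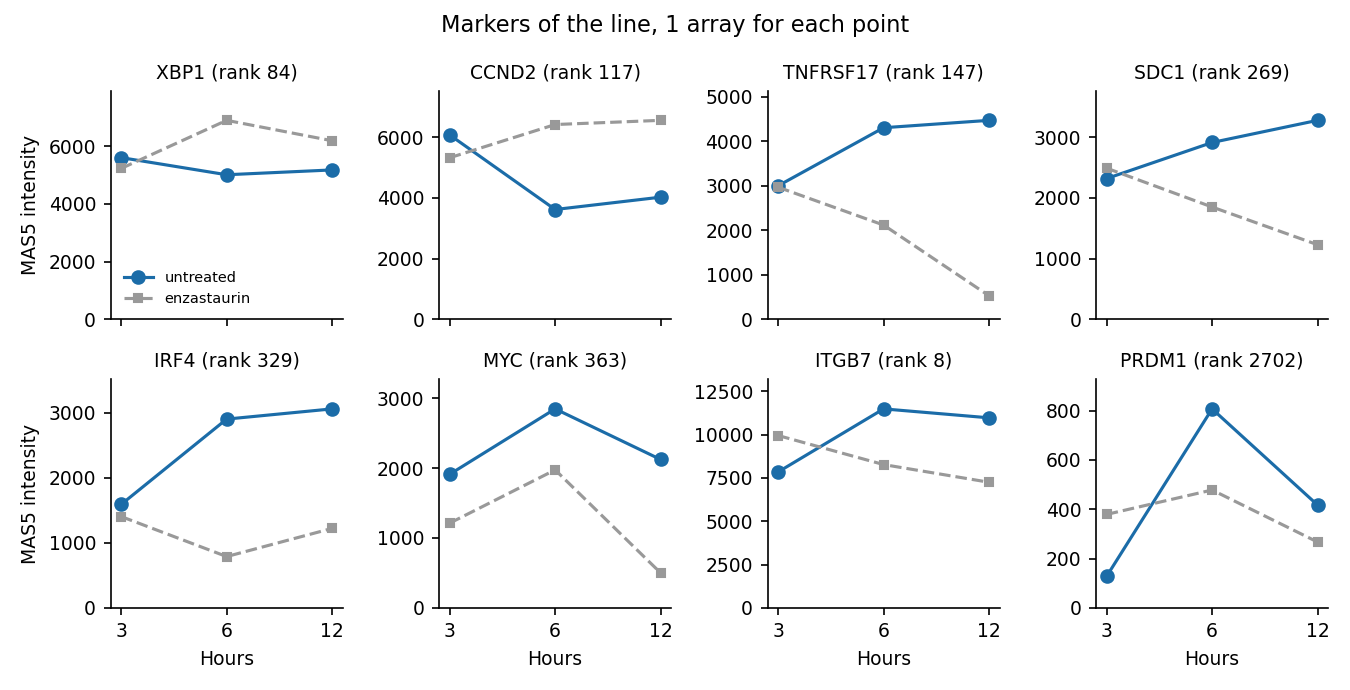
MAS5 intensity (vertical axis from 0, 1 scale for each panel) against hours for the 6 markers of the line and for ITGB7 and PRDM1, with 1 array behind each point, untreated in blue and enzastaurin in grey. In untreated cells XBP1 stayed between 5010 and 5604, while PRDM1 went from 128 at 3 h to 807 at 6 h and 417 at 12 h.

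Markers of other cell types lay low. None of 18 T and NK cell genes, 14 monocyte and granulocyte genes or 15 epithelial and liver genes was a tested gene, and their highest mean intensities were 58.6, 39.3 and 66.1. Summed over the list, T and NK cell signal was 526, 527 and 512 at 3, 6 and 12 h, monocyte and granulocyte signal 255, 396 and 269, and epithelial and liver signal 478, 496 and 348. LYZ, the monocyte lysozyme, had 1.46, 6.5 and 1, where 1 is the floor. CD3D of the T cell receptor complex had 10.8, 5.36 and 8.62. Among 17 stromal and endothelial genes 3 were tested (SPARC, FN1 and COL1A1), the highest being SPARC with 334, 276 and 380. The summed signal of that list was 1251, 1086 and 1068.

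Of 10 erythroid and platelet genes, 2 were tested genes, both of them haemoglobins. HBD had intensities of 679, 658 and 929 and HBB 244, 324 and 419, whereas the other 8 erythroid and platelet genes were not tested genes. Among those 8, AHSP, which encodes the chaperone of alpha globin, had 12.4, 45.9 and 26.2. HBD and HBB are close copies of each other, so their signals may not be separate.

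Genes of the earlier B cell programme were mostly low as well. Of 21 with a probe set, 6 were tested genes, and the highest was the adaptor BLNK with 465, 354 and 448. PAX5, which holds B cell identity, had 46.9, 51.9 and 40.4, MS4A1 (CD20) 31.1, 39.4 and 36.5, and BCL6 15.7, 19.0 and 18.1. CD22 was higher in signal with 304, 518 and 396, and CIITA, the activator of HLA class II genes, had 147, 142 and 126. The median of the 21 was 46.2, against 85.5 over all genes.

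**Figure D2:**
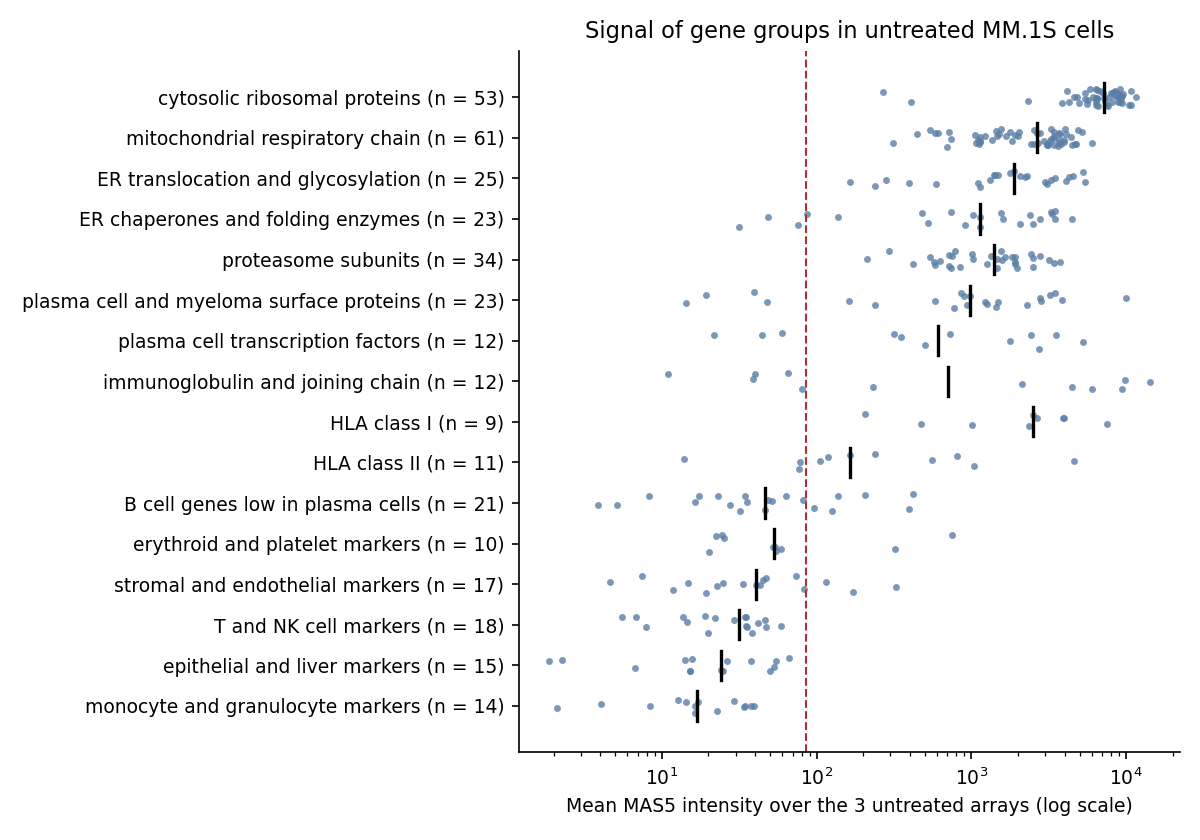
Mean MAS5 intensity over the 3 untreated arrays (log scale) for the members of 16 gene groups, 1 point for each gene, with the group median as a black bar and the lower bound of tested genes, 85.5, as a dashed line. Ribosomal proteins have the highest median, 7138, and monocyte and granulocyte markers the lowest, 16.8.

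The genes of highest signal were those of protein synthesis and of the antibody. Of the 30 highest, 21 encode cytosolic ribosomal proteins and 3 immunoglobulin lambda sequences. The remaining 6 were EEF1A1, which brings transfer RNA to the ribosome, PPIA, ITGB7, ACTB, GAPDH and OAZ1. The lowest of the 30 had a mean intensity of 8070, and the 99th percentile of all genes was 4347. Of the 100 highest, 46 encode ribosomal proteins, 5 are translation factors, 4 belong to immunoglobulin and its joining chain, 5 to actin and tubulin, 4 to glycolysis and 4 to the respiratory chain. The 100 highest genes of the enzastaurin arrays shared 91 with them.

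IGLC1, a lambda light chain constant region, ranked first with 13758, 13592 and 15183. The lambda constant regions are close copies, and this probe set cannot be taken to measure IGLC1 alone. IGLV1-44 ranked 9 with 9498, 9476 and 10589, and the lambda-like IGLL5 ranked 67 with 4893, 7109 and 6145. The kappa constant region IGKC had 88.7, 80.8 and 73.8 and was not a tested gene. MM.1S is known as a lambda light chain line, and the levels of these probe sets are not compared with each other here.

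Heavy chain probe sets gave little signal. IGHG1 had 221, 275 and 204, IGHD 38.7, 27.6 and 60.1, and IGHM 43.7, 46.9 and 28.5. The alpha heavy chains are not analysed here, since no probe set was paired with either of them alone. JCHAIN, which links antibody units into polymers, ranked 116 with 4467, 5178 and 3874. MZB1, an ER cochaperone of antibody assembly, ranked 397 with 1409, 2763 and 2476, lowest at 3 h.

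Genes tied to the MAF translocation were also high. ITGB7, an integrin chain for adhesion to stroma, ranked 8 of all genes with 7844, 11482 and 10966 (mean log2 13.28 ± 0.30, SD, n = 3). MAF itself ranked 236 with 3249, 3155 and 2796 (11.58 ± 0.11, SD, n = 3), although its other probe set at a tested level was higher at 6 h than at 3 h (log2 difference 0.73). CCR1, a chemokine receptor, ranked 414 with 2508, 1762 and 2040. DEPTOR, an inhibitor of mTOR known for high levels in myeloma with cyclin D or MAF translocations, had 800, 1859 and 1957, a range past 2-fold with 3 h lowest.

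Genes of other translocation groups were lower in signal. CCND1 had 29.1, 29.0 and 51.7, and FGFR3 had 7.24, 21.6 and 4.07, both under the level of tested genes. CCND3 had 287, 329 and 355, and NSD2, which the translocation with FGFR3 would activate, had 1028, 591 and 754. Of the 8 tested members of the whole list of translocation and cyclin D genes, which includes CCND2, 5 were highest at 3 h. Over all tested genes 37.7% were.

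Among 12 plasma cell transcription factors, 9 were tested genes. POU2AF1, the coactivator of immunoglobulin promoters, ranked 178 and varied little, with 3401, 3340 and 3776. PRDM1, which encodes BLIMP-1, varied most, with 128, 807 and 417, so that 6 h was 6.32-fold over 3 h. IKZF1, which encodes Ikaros, had 220, 467 and 309. IKZF3, which encodes Aiolos, had 12.8, 46.2 and 17.7 and was not a tested gene. Of the 9, 6 were lowest at 3 h, where 35.4% of all tested genes were lowest, and 2 were at least 2-fold apart.

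Surface proteins of plasma cells and myeloma were high in signal as a list, with a median of 976 over 23 genes and 14 of them among the 1196 genes of highest signal. Of the 19 tested, 13 were lowest at 3 h, where 35.4% of tested genes were, and 6 were at least 2-fold apart over the 3 arrays. Over all tested genes, 682 (11.4%) were that far apart. SLAMF7, the target of elotuzumab, had 535, 1464 and 1186. CD48 had 778, 1348 and 1914, and LY9 132, 396 and 265, both of them members of the same receptor family. CXCR4, which holds plasma cells in the bone marrow, went the other way with 2012, 979 and 924. Between 6 h and 12 h alone the median log2 difference of the 19 was -0.07.

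Some proteins often measured on myeloma cells had a low signal. CD38 had 180, 150 and 156, CD27 14.5, 20 and 25.4, and NCAM1 (CD56) 39.2, 40.5 and 69.7. TNFRSF13B, the TACI receptor of the same ligands as BCMA, had 52.3, 48.2 and 24.7. Receptors for interleukin 6, the classic growth factor of myeloma, were well above these, IL6ST with 2380, 2392 and 2073 and IL6R with 1074, 2007 and 1392.

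The secretory pathway was high throughout. All 25 measured genes of ER translocation, signal peptidase and oligosaccharyl transfer were tested genes, 20 of them among the 1196 highest, with a median of 1892. SEC61B of the translocation channel had 5722, 5165 and 5424, and SPCS1 of the signal peptidase 4858, 5294 and 5574. The median log2 difference of the list was 0.08 between 6 h and 3 h and 0.00 between 12 h and 3 h. SSR4 of the translocon-associated complex was 1 of 2 members at least 2-fold apart, and the other was STT3A with 114, 274 and 141.

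ER chaperones and folding enzymes had a median of 1141 over 23 genes, of which 20 were tested. The 6 h array was the highest for 15 of the 20 and the 3 h array the lowest for 14, where 26.5% and 35.4% of tested genes were so. Their median log2 difference was 0.36 for 6 h minus 3 h, 0.08 for 12 h minus 3 h and -0.22 for 12 h minus 6 h. P4HB, a protein disulfide isomerase, had 2342, 3941 and 4512, and PPIB, a proline isomerase, had 1835, 3173 and 2646. DNAJC3, a cochaperone of HSPA5, had 103, 234 and 107, and was the only one of the 20 past 2-fold.

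Genes of ER-associated degradation and stress sensing had no common direction. Of 18 tested members 9 were highest at 3 h, where 37.7% of tested genes were. HERPUD1, which organises the degradation complex, had 4799, 4536 and 4471. EDEM1, which draws misfolded glycoproteins to degradation, had 1588, 1200 and 717. The sensor kinase EIF2AK3 had 794, 1140 and 920, ATF6 253, 421 and 373, and ERN1, the nuclease that splices XBP1, 69.7, 41.4 and 62.4. An intensity of the XBP1 probe set does not separate the spliced from the unspliced form.

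The target genes of ATF4 and CHOP, which follow from that kinase and from amino acid shortage, had a median of 349 over 25 genes. Of the 20 tested, 12 were highest at 3 h and 12 lowest at 6 h, where 37.7% and 45.3% of tested genes were. Their median log2 difference was -0.50 for 6 h minus 3 h and 0.25 for 12 h minus 6 h. DDIT4, an inhibitor of mTOR, had 245, 50.8 and 82.7, SLC7A5, an amino acid transporter, had 762, 339 and 633, and GADD45A had 761, 310 and 346. DDIT3, which encodes CHOP, had 91.5, 68.5 and 92.7, and CHAC1 had 25.4, 35.9 and 46.7, both under the level of tested genes.

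Proteasome genes were abundant and even. All 34 measured subunits and activators were tested genes, with a median of 1397 and a median range of 0.29 on the log2 scale, and 1 was past 2-fold, the ATPase PSMC4 with 626, 1255 and 764. PSMB5, the subunit that bortezomib binds, had 615, 442 and 683. Of the immune forms, PSMB8 had 192, 193 and 250 and PSMB9 476, 500 and 655.

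Ribosomal protein genes were the steadiest list described here. Their median range over the 3 arrays was 0.21 on the log2 scale, against 0.50 for tested genes, and 0 of 53 were 2-fold apart. Genes of high signal had smaller ranges in general, and the 100 highest genes had a median range of 0.20. Within this small range, 36 of the 53 were lowest at 6 h, where 45.3% of tested genes were. RPS12 had 9323, 9217 and 9299, and was among the 10 genes of smallest range. RPL36 was the widest of those named, with 3216, 4502 and 4970.

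The respiratory chain and glycolysis supplied a further part of the high signal. Of 61 respiratory chain genes 53 were among the 1196 highest, and 36 of 61 were highest at 12 h, where 35.8% of tested genes were. COX7C had 6371, 5940 and 5764. In glycolysis GAPDH had 8940, 8925 and 9348 and LDHA 6278, 6228 and 5413. GPI, an isomerase of the pathway, was at least 2-fold apart with 716, 2181 and 1404, as were PKM with 857, 1724 and 1517 and PFKL with 62.3, 184 and 144.

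Of 8 tested HLA class II genes, 6 were lowest at 3 h and 2 at 6 h, and 7 were highest at 12 h, where 35.8% of tested genes were. Of the 8, 6 were at least 2-fold apart, against 11.4% of tested genes. Their median log2 difference was 0.74 for 6 h minus 3 h, 1.02 for 12 h minus 3 h and 0.26 for 12 h minus 6 h. CD74, the invariant chain that guards the peptide groove, ranked 106 with 3252, 4916 and 6091. HLA-DRA had 656, 1205 and 1392, and HLA-DPB1 180, 184 and 404.

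In HLA class I, 7 of 9 tested members were lowest at 3 h and 7 highest at 12 h, against 35.4% and 35.8% of tested genes. HLA-B had 2963, 4338 and 4745, HLA-E 1592, 3369 and 2451, and the peptide loading factor TAPBP 614, 1546 and 1088. B2M, the shared light chain, did not follow them, with 7542, 7392 and 7587. HLA genes are alike in sequence and each value may draw on several of them. None of these class I or class II members passed the slope test described below.

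Sterol synthesis genes were highest at 12 h in 11 of 13 tested members, where 35.8% of tested genes were. They were never highest at 3 h, where 37.7% of tested genes were. LSS, lanosterol synthase, had 911, 1646 and 2091, FDPS 1417, 1688 and 2323, and DHCR7, which makes the last step to cholesterol, 188, 390 and 472. EBP was lowest at 6 h instead, with 1725, 744 and 1753. The median log2 difference was 0.35 for 12 h minus 3 h and 0.34 for 12 h minus 6 h.

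Cell division genes had signal on all 3 arrays. All 25 measured DNA replication genes were tested genes, with TYMS at 5228, 4413 and 5017 and RRM2 at 5594, 3983 and 4967. Of the 25, 16 were highest at 3 h, where 37.7% of tested genes were. All 30 genes of G2 and mitosis were tested, with a median of 682. UBE2C, which marks mitotic proteins for degradation, had 1421, 625 and 1473, and CCNA2, cyclin A2, 1271, 586 and 954. In bulk RNA, fewer cells in a phase and less RNA per cell cannot be told apart.

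Immediate early genes were low apart from a few. FOS had 7.65, 14.5 and 4.02, EGR1 50.2, 132 and 54.3, and JUNB 80.0, 50.5 and 72.8, none of them tested genes. JUN had 409, 427 and 321. DUSP5, a phosphatase of ERK, had 2526, 983 and 1519, and IER5 had 1098, 393 and 559, both highest at 3 h. Among survival genes MCL1, on which myeloma cells are known to rely, had 2882, 2201 and 2173, BCL2 had 380, 589 and 434, and BCL2L11, which encodes the death activator BIM, had 248, 58.5 and 91.3.

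PRKCB, the target of enzastaurin, ranked 6426 with 68.9, 77.0 and 71.2 and was not a tested gene. PRKCA had 285, 343 and 353, PRKCI, an atypical form, 1223, 915 and 688, and PRKD3 of the protein kinase D family 3443, 3391 and 3095. CTNNB1, which encodes the beta-catenin named in the series title, had 770, 845 and 517, and its partner LEF1 822, 418 and 590. GSK3B, the kinase that marks beta-catenin for degradation, had 139, 275 and 139. Of 12 tested members of this list, 0 were at least 2-fold apart, against 11.4% of tested genes, and in so short a list 0 is near that share. Their median range was 0.64 on the log2 scale, against 0.50 for tested genes.

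Targets of myeloma drugs covered a wide range of signal. NR3C1, the glucocorticoid receptor, ranked 493 with 2422, 1518 and 1697, and MM.1S is known as the glucocorticoid-sensitive form of its parent line. XPO1, the nuclear exporter that selinexor blocks, had 2334, 1574 and 1752. CRBN, the cereblon to which lenalidomide binds, had 635, 451 and 665, and its partner DDB1 772, 1172 and 927.

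**Figure D3:**
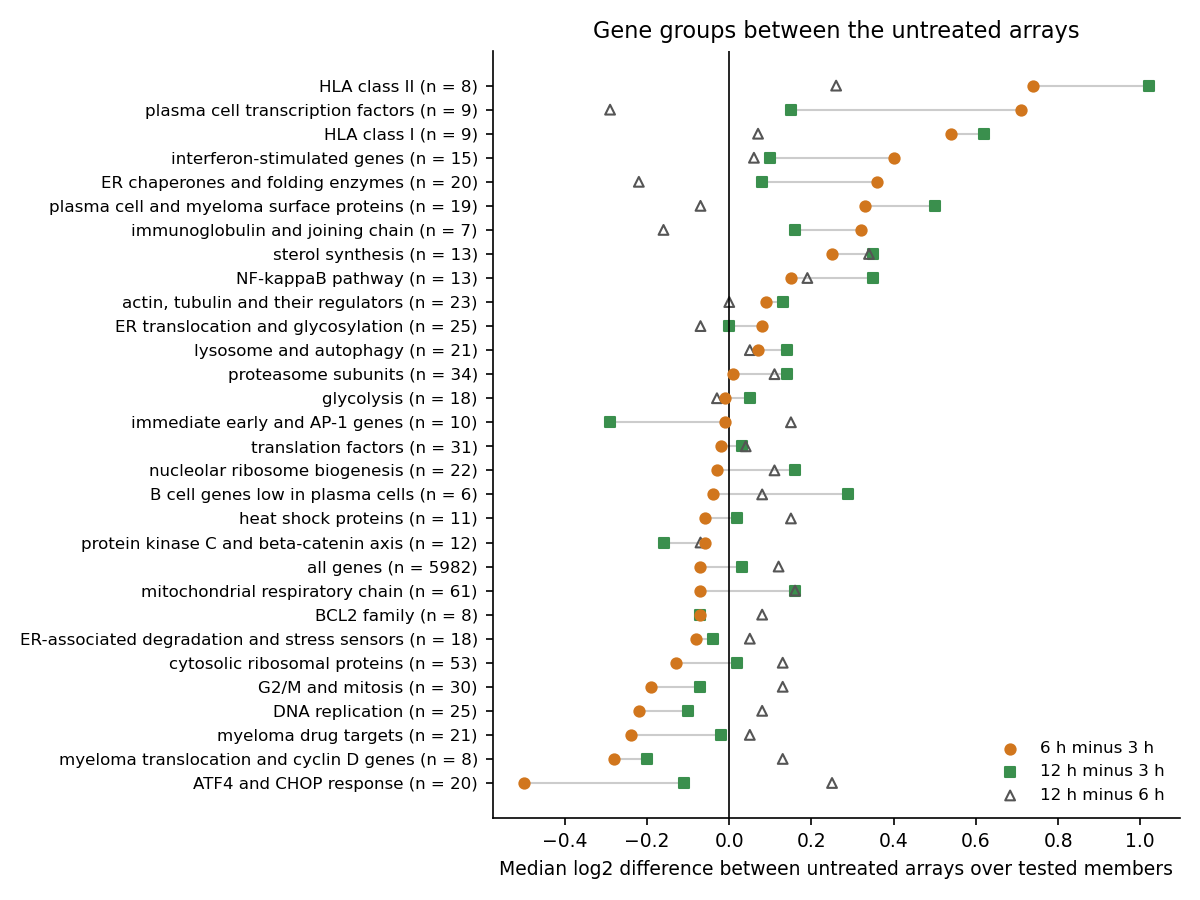
Median log2 difference between pairs of untreated arrays (horizontal axis) over the tested members of each gene list, with circles for 6 h minus 3 h, squares for 12 h minus 3 h and open triangles for 12 h minus 6 h. The first and second of these share the 3 h array and are not independent. HLA class II genes lie farthest right at 0.74 and 1.02, ATF4 and CHOP targets farthest left at -0.50 for 6 h minus 3 h, and all tested genes at -0.07, 0.03 and 0.12.

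The spread over the 3 untreated arrays depended on signal. The median range of a tested gene was 0.50 on the log2 scale, or 1.41-fold, and 23 of the 682 genes past 2-fold were past 4-fold. Without the 3 h array the median range was 0.25 and 171 genes (2.86%) were past 2-fold. These values were 0.27 and 226 genes (3.78%) without the 6 h array, and 0.36 and 516 genes (8.63%) without the 12 h array. Such ranges are over 2 arrays, so a fall from the range over 3 is in large part built in. In the brightest of 10 equal bins of all genes, with a median intensity of 1598, the median range was 0.34 and 5.18% were past 2-fold. In the dimmest bin, with a median of 8.88, the median range was 1.82 and 80.2% were. Over the 3 enzastaurin arrays the median range of the tested genes was 0.57 and 17.6% were past 2-fold, and among the 5981 genes below the tested level the shares were 42.3% in untreated and 37.0% in enzastaurin cells.

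**Figure D4:**
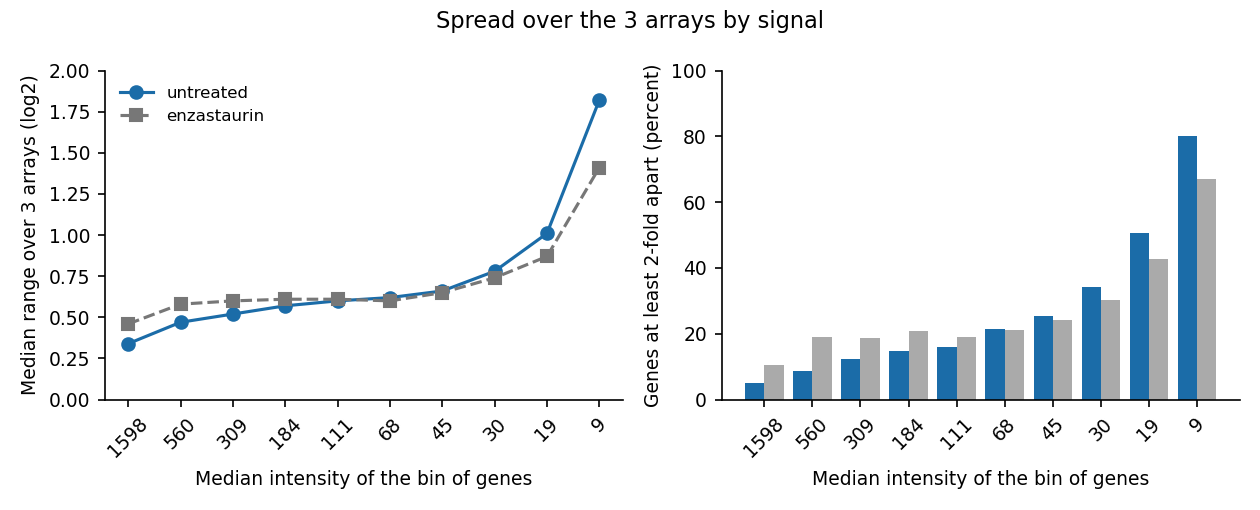
Left, median of the highest minus the lowest log2 intensity over 3 arrays, and right, percent of genes at least 2-fold apart, for all 11963 genes in 10 bins of equal size from high to low signal, each named by its median intensity, with untreated in blue and enzastaurin in grey. In untreated cells the median range goes from 0.34 in the brightest bin to 1.82 in the dimmest.

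The 3 arrays did not form a steady course in time. The 12 h array lay between the others in 2687 of 5982 tested genes (44.9%) and in 446 of the 682 genes past 2-fold (65.4%), while the 6 h array did so in 131 and the 3 h array in 105 of them. By pairs, the 6 h array was 2-fold or more over the 3 h array in 239 genes and under it in 289. At 12 h, 170 were higher and 62 lower than at 3 h, and 125 higher and 52 lower than at 6 h. The ribosomal RNA signal of the 12 h array also lay between those of the others.

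The widest ranges among tested genes were named by array. ARHGEF17 had 136, 1587 and 627, a range of 3.54 on the log2 scale. SPPL2B, an intramembrane protease, had 48.0, 383 and 136, and EIF5A, a translation factor, had 453, 3177 and 1012. Both further EIF5A probe sets at a tested level were higher at 6 h as well (log2 differences 1.69 and 3.98). Each of these 3 genes was highest at 6 h and lowest at 3 h.

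Genes that stood lowest at 6 h included SLC39A7, a zinc transporter of the ER, with 484, 61.0 and 301, HMGN5 with 343, 69.4 and 187, and SMS, spermine synthase, with 323, 68.2 and 214. ABCD3, a peroxisomal transporter, stood highest at 3 h with 515, 86.8 and 156, and so did the transcription factor gene ZHX2 with 510, 106 and 134. Those that stood highest at 12 h had smaller ranges, such as HLA-DOB with 104, 78.1 and 204 and CLN3, a lysosomal protein, with 145, 155 and 344. RAB11FIP3 stood lowest at 12 h with 252, 307 and 106.

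At the other end, 10 genes had nearly the same signal on all 3 arrays. Among them HCLS1, a cytoskeletal adaptor of blood cells, had 3077, 3051 and 3061, VOPP1 had 3487, 3492 and 3461, and TOMM20 of the mitochondrial import pore had 2070, 2057 and 2061. STAT5B had 97.7, 97.9 and 97.1. With 5982 genes and 3 arrays some small ranges arise in any case, and another TOMM20 probe set differed by 0.29 on the log2 scale between 6 h and 3 h.

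A slope of log2 intensity on log2 hours was tested over the 3 untreated arrays with limma. Because log2 hours are evenly spaced here, the slope is set by 12 h minus 3 h, and the 6 h value does not enter it. The test has 1 residual degree of freedom, and its variance came entirely from a prior shared by genes of like intensity. It called 14 of 5982 genes at an adjusted p under 0.05 (0.234%). Of these, 10 were higher at 12 h than at 3 h, called rising below, and 4 were lower, called falling. At an unadjusted p under 0.05 there were 254, fewer than the 299 expected from chance alone. With 1 array for each time and no replicate cultures named, the only residual is the departure of the 6 h value from the line. A real peak or dip at 6 h counts as error there. A p-value here therefore measures no spread between replicate cultures or arrays, and a called slope may be technical. Between settings the count went from 0 to 90, and it was 0 with equal medians, without the filter on low signal, with a slope on hours, and with both treatments in 1 fit.

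Among the rising genes SSR4, a subunit of the translocon-associated complex, had 1049, 3539 and 3145 (slope 0.79 per doubling of time, SE 0.16, limma adjusted p = 0.00236). CYBA, the small subunit of the phagocyte oxidase, had 841, 2072 and 2763 (0.86, SE 0.18, adjusted p = 0.00236). PITX1, a homeobox factor, had 58.6, 336 and 368 (1.32, SE 0.29, adjusted p = 0.00535). A second probe set was also higher at 6 h, a value that does not enter the slope. With the median over its probe sets the slope of PITX1 was 0.86 and did not pass. ARHGEF17 had the values given above (1.10, SE 0.24, adjusted p = 0.00576). GPRC5D, a plasma cell receptor that is a target of myeloma therapy, had 641, 2728 and 1867 (0.77, SE 0.18, adjusted p = 0.0201).

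The other rising genes were SEMA4A with 1091, 2687 and 2909, IL2RG, the shared chain of several interleukin receptors, with 585, 2091 and 1759, and SRM, spermidine synthase, with 594, 1628 and 1809. ATP5F1D of the ATP synthase had 289, 1245 and 1008, and TIMP1, an inhibitor of metalloproteinases, 402, 1205 and 1280. Their adjusted p-values in limma ran from 0.0178 for SEMA4A to 0.0423 for TIMP1. In each of the 10 the 3 h array was the lowest, and a 12 h value above that at 3 h is built into a rising slope.

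Among the falling genes STAT4, a transducer of interleukin 12 signals, had 456, 90 and 52.9 (slope -1.55, SE 0.31, limma adjusted p = 0.00236). DNAAF1, a factor for assembly of ciliary motors, had 686, 208 and 131 (-1.20, SE 0.27, adjusted p = 0.00991). SAT1, which breaks down polyamines, had 1392, 373 and 371 (-0.95, SE 0.23, adjusted p = 0.0266), and its second probe set at a tested level was lower at 6 h too. CREM, a regulator of cyclic AMP responses, had 483, 92.3 and 94.6 (-1.18, SE 0.30, adjusted p = 0.0324), and both of its further probe sets were lower at 6 h (log2 differences -2.22 and -2.01). These 6 h values do not enter the slopes. With the median over probe sets the slopes of SAT1 and CREM were -1.05 and -1.11, and both passed. In each of the 4 the 3 h array was the highest, and a 12 h value below that at 3 h is built into a falling slope.

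Most of each difference between 3 h and 12 h was already present at 6 h. Between 6 h and 12 h alone, the log2 difference was -0.17 for SSR4, 0.42 for CYBA, 0.13 for PITX1, -1.34 for ARHGEF17 and -0.55 for GPRC5D. It was -0.77 for STAT4, -0.67 for DNAAF1, -0.01 for SAT1 and 0.04 for CREM. With a step of 6 h and 12 h against 3 h in place of the slope, 90 genes passed, and these included all 14. With the ribosomal RNA signal in place of hours, an alternative added after seeing the data, 63 passed, and 11 of the 14 were among them. At an unadjusted p under 0.05 limma gave 1006 genes for the ribosomal RNA signal, against 254 for the slope on log2 hours. Hours, the step and the ribosomal RNA signal are each 1 contrast of the same 3 arrays. Counts under them therefore cannot tell these terms apart.

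**Figure D5:**
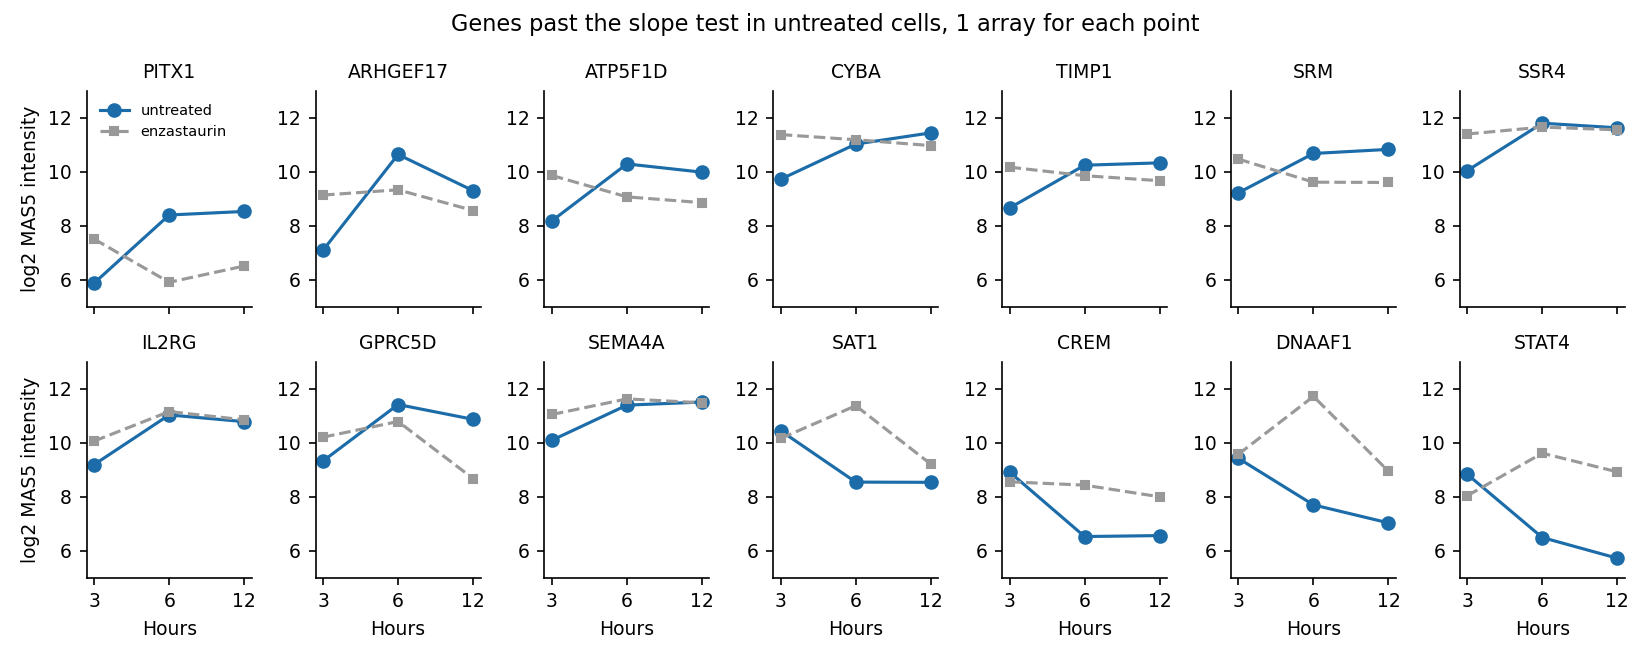
Log2 MAS5 intensity (vertical axis, the same in each panel) against hours for the 14 genes past the slope test in untreated cells, 1 array for each point, untreated in blue and enzastaurin in grey. In untreated cells the 3 h array is the lowest in the 10 rising genes and the highest in SAT1, CREM, DNAAF1 and STAT4.

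Whether a slope in untreated cells differed from that in enzastaurin cells was tested over all 6 arrays with limma, and the model held the time points as blocks. The mean log2 signal of ribosomal RNA probe sets was 9.99, 3.79 and 3.02 on the enzastaurin arrays at 3, 6 and 12 h, against 3.39, 11.98 and 9.29 on the untreated arrays. At 12 h it was thus lower than at 3 h with enzastaurin and higher than at 3 h without, where 6 h was the highest. The log2 ratio of the 3' to the 5' probe set of ACTB was 2.0, 0.57 and 0.86 with enzastaurin, against 1.89, 1.16 and 1.6. The part of these array values in the differences was not tested. Over tested genes the median log2 difference of enzastaurin minus untreated was -0.05 at 3 h and -0.23 at 12 h. At 12 h, 187 genes were 2-fold or more higher with enzastaurin and 699 lower. The slope difference is set by the 3 h and 12 h arrays, and the part of this offset in it was not tested. The slope difference passed in 94 of 5982 genes (1.57%), and 672 had an unadjusted p under 0.05. Of the slopes in enzastaurin cells, 32 were higher (0.535%) and 62 lower (1.04%). None passed with quantile normalization or without the time block (664 and 689 at an unadjusted p under 0.05). All 14 genes above had a slope difference of the opposite sign to their slope in untreated cells, which is in part built in because both use the same untreated arrays, and 7 of them passed.

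STAT4 had 263, 783 and 485 in enzastaurin cells at 3, 6 and 12 h (slope difference 1.99, SE 0.37, limma adjusted p = 8.89e-05). GPRC5D had 1181, 1765 and 409 (-1.54, SE 0.31, adjusted p = 0.000397). IL2RG had 1069, 2278 and 1842, close to its course in untreated cells, and its difference of -0.40 (SE 0.29) did not pass (adjusted p = 0.656).

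Of the 6 markers of the line, the slope difference passed in TNFRSF17 alone. In untreated cells it had 3003, 4308 and 4474, and in enzastaurin cells 2970, 2119 and 528 (-1.53, SE 0.24, limma adjusted p = 1.67e-06), with the ribosomal RNA signal of the arrays as given above. SDC1 had 2490, 1850 and 1229 with enzastaurin (-0.76, adjusted p = 0.095), and XBP1 5229, 6896 and 6189 (0.18, adjusted p = 0.753). Of the 19 plasma cell surface genes tested, 3 passed with a lower slope in enzastaurin cells, ITGB7, TNFRSF17 and GPRC5D, and 0 with a higher one. Among 20 ER chaperones and folding enzymes 3 passed with a lower slope, ERP29, PDIA3 and SDF2L1, and 0 with a higher one. Such calls were not particular to these lists. A lower slope passed in 2 of 8 HLA class II genes, 2 of 2 erythroid and platelet genes and 2 of 22 nucleolar ribosome biogenesis genes. It also did in 2 of 23 actin and tubulin genes and 2 of 61 respiratory chain genes. Some lists had 1 higher slope, such as the ATF4 and CHOP targets. Over all tested genes 1.04% passed with a lower slope, and none of these calls held with quantile normalization or without the time block.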

How the data were processed

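RNA of MM.1S cells was measured on 6 Affymetrix arrays, 3 of them untreated. Each deposited value is a linear intensity for a probe set, computed by the authors using MAS5 (per the submitters' processing notes). Its version, scaling target and detection calls were not found in the labels, and the number of arrays limits the precision. Values were floored at 1, after 22 to 39 zeros were seen on each array, and log2 transformed, with the authors' scaling kept. Symbols came from the platform annotation, and 19052 of 19064 were matched to RefSeq genes of GRCh38.p14. Genes in the upper 50% of mean signal over the untreated arrays were tested (for the slope difference, over all 6). Fits used limma 3.58.1 in R 4.3.3 (lmFit, eBayes with an intensity trend) with Benjamini-Hochberg adjustment, called at 0.05. They were also run on simulated data with independent noise and no array-wide differences. That run cannot show how the array differences given above act on the calls. Promoter features used the window listed first for each gene (27305 genes, 5035 of 5982 tested genes), 250 bases before to 50 after the start.

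Genes were named by rule: the 30 of highest signal, the 15 largest slopes in each direction, the 5 highest and 5 lowest on each array, the 10 of smallest range, 6 markers, and in each of 34 lists the 3 highest, the 3 widest and any called. Other list members were chosen with their values in view. The members, lists and rules were chosen with earlier results of these data known. Alternatives were other scalings, floors, filters, probe set choices, variance priors and time terms.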

Additional observations from a re-analysis of the deposited data

How the results depend on the processing

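The count of 14 slope calls became 7 with quantile normalization, 22 with every probe set tested, 5 without the intensity trend, 90 with a step of 6 h and 12 h against 3 h, and 63 with the ribosomal RNA signal in place of hours, which was added after seeing the data. It became 0 with equal medians, no filter, a slope on hours, and both treatments in 1 fit, where limma gave 220, 337, 114 and 216 genes at an unadjusted p under 0.05. The 94 slope differences became 0 with quantile normalization, 170 with equal medians, 151 with no filter, 53 with the upper 25%, 55 with the median over probe sets, 143 with every probe set and 0 without the time block. The cause was not tested, beyond the smaller or larger number of genes in the filter and probe set alternatives. No named slope reversed in the alternatives run. With another filter, every probe set tested, no intensity trend or both treatments in 1 fit, a slope stays the same by construction. Those settings could therefore not reverse it. Of the 100 genes of highest signal, 80 were kept with the median over probe sets and 95 to 97 with 1 array left out. The 682 genes past 2-fold became 3214 with no filter and 238 with the upper 25%. With 1 array left out they became 171 to 516, the lowest without the 3 h array and 226 without the 6 h array. A range over 2 arrays is narrower than one over 3 by its making, so a fall is in large part built in. Slopes were not fitted with 1 array left out, since 2 times leave no residual degree of freedom. The labels give no replicate numbers, so the only pairing is by time point, which the slope difference holds as a block. The signal over background limits dim genes, as their wider ranges show.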

Other observations

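Differences from the 3 h array were weakly related to the genomic span of genes. Across the 5035 tested genes with a promoter window, the log2 difference of 6 h minus 3 h had a Spearman correlation of -0.16 with the genomic span of the gene, and 12 h minus 3 h one of -0.19, while 12 h minus 6 h had 0.01. The first and second of these share the 3 h array. The GC content of the promoter window had Spearman correlations of 0.00 in size with each difference. The 239 genes at least 2-fold higher at 6 h than at 3 h had a median span of 19.9 kb (over the 192 with a window), the 289 at least 2-fold lower had 46.1 kb (234 with a window), and the rest 31.1 kb. Genes on an array are not independent, and these correlations describe 3 arrays.

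Interferon-stimulated genes were mostly low in untreated cells. Of 34 with a probe set 15 were tested genes, and IFI44L had 4.03, 14.3 and 6.16 at 3, 6 and 12 h, IFIT1 4.36, 13.7 and 22.5, and ISG15 32.5, 49.7 and 69.1. IFI16, a DNA sensor, had 1117, 1507 and 1147, and BST2, also called tetherin, 911, 1278 and 964. In the NF-kappaB pathway the inhibitor TNFAIP3 ranked 398 with 1546, 2450 and 2534, NFKB1 had 272, 439 and 500, and REL 39.0, 83.3 and 28.0, the last under the level of tested genes.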
